A study of Mus musculus with 6 samples.

Results

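Complement is a system of plasma and tissue proteins that marks surfaces for removal. C1q, built of subunits that each hold an A, a B and a C chain, starts the classical pathway, which cleaves C4 and then C3, and the fragments C3a and C5a act on receptors of myeloid cells. In the brain, microglia are known as a main source of C1q, and C1q and C3 are known for tagging synapses that microglia then engulf through complement receptor 3. Here 9 complement genes were followed in CD11b+ cells of mouse brain: the chain genes C1qa, C1qb and C1qc, the components C3 and C4b, the receptor genes C3ar1, C5ar1 and C5ar2, and Cd55, which encodes the decay-accelerating factor, an inhibitor of the enzymes that cleave C3. They were chosen by gene symbol, and all 9 were found among the 19225 genes listed.

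CD11b+ cells were enriched with magnetic beads from the brains, without cerebellum, of male mice that had not been stressed, 1 library per mouse and 3 libraries per genotype. The labels give an age of 3 months for all 6, with the strain C57BL6/J and genotype wt/wt for Cnr1+/+ and the strain Cnr1 tm1Zim and genotype d/d for Cnr1-/-, whereas the methods describe littermates. Cnr1 encodes cannabinoid receptor 1 (CB1), and in the constitutive knockout a neomycin cassette disrupts its coding region in every cell type, so that cells other than microglia carried it too. Libraries were read from the 3′ ends of polyadenylated transcripts and values are CPM (cpm, read counts scaled to library size) after TMM normalisation. In order of replicate, the genes listed summed to 501085, 540557 and 542571 cpm in the libraries labelled Cnr1+/+. In those labelled Cnr1-/- they summed to 535191, 591247 and 580994 cpm. The comparison asks whether microglial transcripts differ with CB1 before any stress.

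Cnr1 itself was listed at 0 cpm in the 3 libraries labelled Cnr1+/+, and at 1.41, 1.21 and 1.79 cpm in those labelled Cnr1-/-, which goes against the labels, although reads from the 3′ end need not cover the disrupted coding region and so do not check the genotype. The methods state that mice were typed by PCR. Every direction below therefore refers to what a library is labelled as. The 14 microglia markers summed to between 18058 and 20972 cpm, led by Cx3cr1 (4743 to 5648 cpm) and Csf1r (2750 to 3441 cpm), with overlapping groups. One library stood apart: in that labelled Cnr1-/- replicate 2, the neutrophil markers (S100a9 and S100a8 the highest) reached a sum of 3944 cpm and the erythrocyte markers (Hba-a2 and Hbb-bs the highest) one of 2342 cpm, where the other 5 had 257 to 509.9 cpm and 136 to 237 cpm. Its 6 monocyte markers (Ccr2 and Chil3 the highest) had a sum of 112 cpm, where those 5 had 28.2 to 34.6 cpm. One read was worth between 0.0933 and 0.130 cpm, which corresponds to effective library sizes (reads multiplied by the TMM factor) of 7708793 to 10723826.

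The genes of the C1q chains lie side by side on the minus strand of chromosome 4 (mm10), with C1qb at chr4:136880129-136886187, C1qc at chr4:136889804-136893065 and C1qa at chr4:136895917-136898803. Together they span 18.7 kb and lie 103 Mb from Cnr1 on the same chromosome. Since their levels moved together between libraries, the 250 bases before the start of C1qb (chr4:136886201-136886450, minus strand) and of C1qc (chr4:136892915-136893164, minus strand) are shown as RefSeq gives them for GRCm38.p6, the same assembly as mm10. RefSeq starts differ from those of the values' annotation, so the window of C1qc overlaps the gene as given above. Capitals mark GAGGAA, or TTCCTC where it lies on the other strand, the core letters of many sites of PU.1, the lineage factor of macrophages.
C1qb: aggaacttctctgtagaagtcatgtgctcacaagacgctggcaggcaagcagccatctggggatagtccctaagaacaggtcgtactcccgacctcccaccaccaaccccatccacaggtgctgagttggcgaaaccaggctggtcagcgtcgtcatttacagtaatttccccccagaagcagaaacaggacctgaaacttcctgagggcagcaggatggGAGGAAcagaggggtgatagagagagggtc
C1qc: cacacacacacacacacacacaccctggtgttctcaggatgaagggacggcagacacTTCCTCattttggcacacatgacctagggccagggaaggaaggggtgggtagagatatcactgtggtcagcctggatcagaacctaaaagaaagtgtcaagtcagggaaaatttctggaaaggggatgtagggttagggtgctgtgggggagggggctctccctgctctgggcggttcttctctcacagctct
Of the 32851 windows of this kind searched on both strands, 23.3% held the letters. Among the 7 of the 9 complement genes with a window they were found for 3, C1qb, C1qc and C5ar2.

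For C1qa, the libraries labelled Cnr1+/+ had 1619, 1390.0 and 1771 cpm and those labelled Cnr1-/- had 1565, 1712 and 1714 cpm. The library labelled Cnr1+/+ replicate 2 was the lowest and replicate 3 of the same label the highest, so the groups overlapped. The means were 1593 ± 192 and 1664 ± 85.5 cpm (SD, n = 3 each), which differed by 0.07 on the log2 scale (SE 0.125, adjusted p = 0.960 by limma). The 95% interval of the difference ran from 0.877-fold to 1.25-fold. In bulk RNA, fewer cells of a type and less RNA per cell cannot be told apart.

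C1qb showed the same order at its lower end, with 1582, 1199 and 1649 cpm under the label Cnr1+/+ and 1405, 1660.1 and 1615 cpm under the label Cnr1-/-. The means, 1477 ± 243 and 1560.0 ± 136 cpm (SD, n = 3 each), differed by 0.09 on the log2 scale (SE 0.133, adjusted p = 0.954 by limma). For C1qc, 1454, 1256 and 1567 cpm stood against 1481, 1609.5 and 1524 cpm, a log2 difference of 0.11 (SE 0.123, adjusted p = 0.933 by limma). The intervals ran from 0.881-fold to 1.29-fold for C1qb and from 0.909-fold to 1.29-fold for C1qc. The means of C1qc were 1426 ± 157 and 1538 ± 65.3 cpm (SD, n = 3 each). The differences of C1qa and C1qb were smaller than the SD within either label, and that of C1qc was smaller than the SD within Cnr1+/+ but larger than that within Cnr1-/-.

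The sign of so small a difference depended on the scaling. Over all 6659 genes tested the median log2 fold change was 0.08, and under quantile normalisation, which took that median to -0.0014, the values of C1qa, C1qb and C1qc were -0.11, -0.0046 and -0.0039. No direction is therefore given for the C1q genes.

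**Figure D1:**
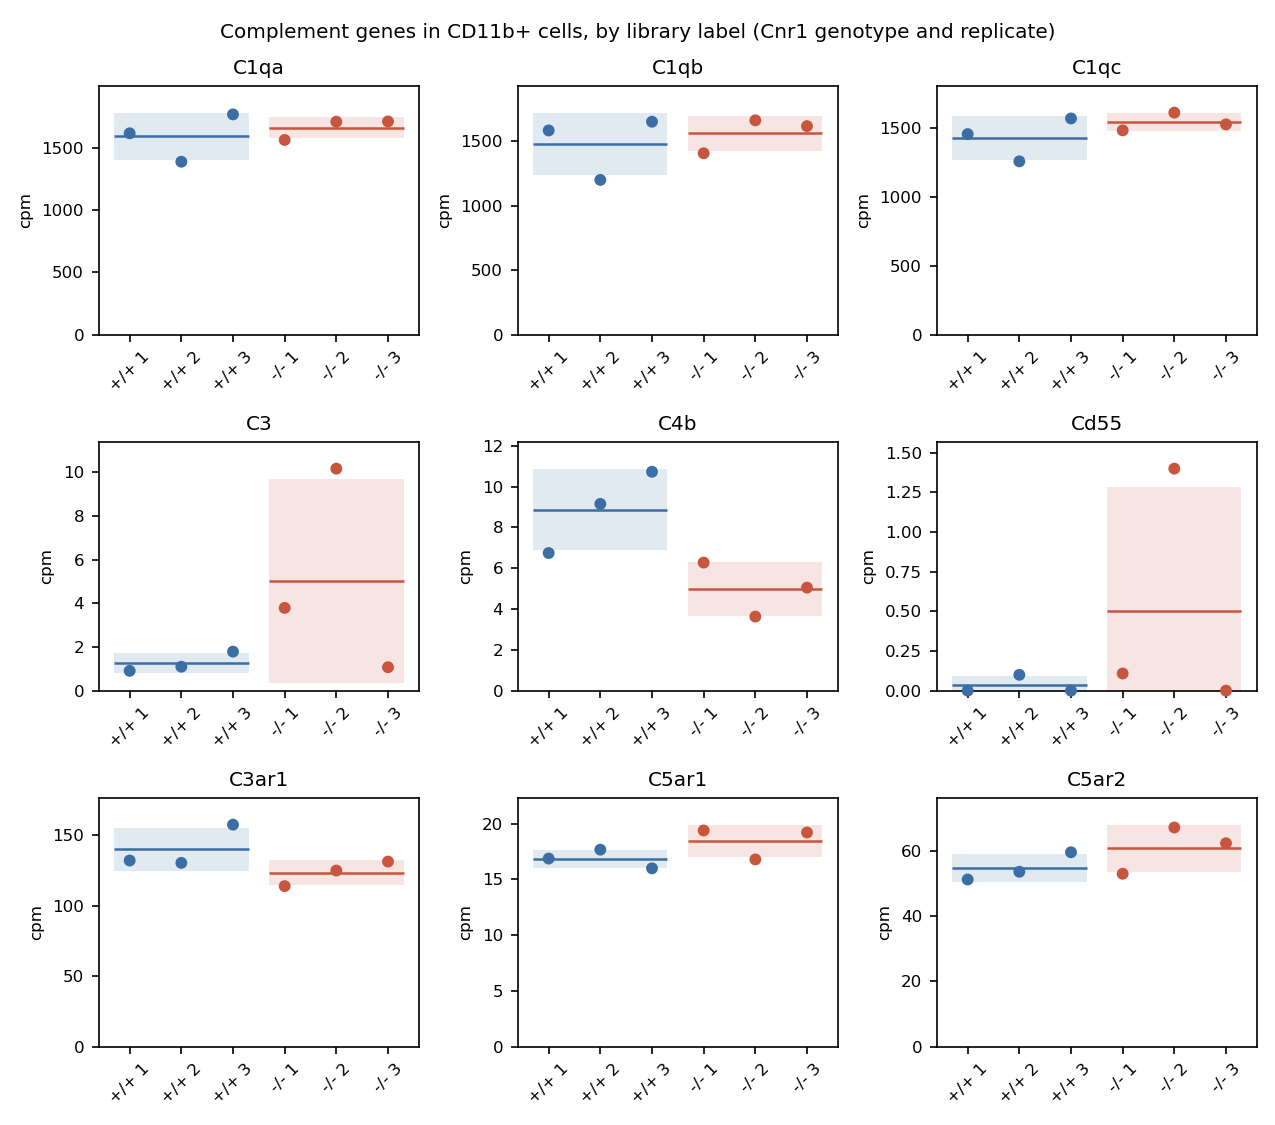
Levels in cpm (vertical axes, from 0) of the 9 complement genes in the 6 libraries, named on the horizontal axes by genotype label and replicate. Points are libraries, lines are group means and bands are 1 SD (n = 3). C4b is the only panel in which the groups do not overlap, and C3 and Cd55 are highest in the library labelled Cnr1-/- replicate 2.

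The C1q genes deviated together in the library with their lowest levels. In the library labelled Cnr1+/+ replicate 2, C1qa, C1qb and C1qc deviated from their own log2 means by -0.22, -0.33 and -0.23, and in that labelled Cnr1+/+ replicate 3 by 0.13, 0.13 and 0.085. Each gene rested on 11208 to 18358 reads per library, and its coefficient of variation within a label lay between 4.24% and 16.5%. C1qc over C1qa lay between 0.885 and 0.947 in the 6 libraries, and C1qb over C1qa between 0.862 and 0.977. Both ratios overlapped between the labels, with means of 0.896 ± 0.00954 and 0.925 ± 0.0313 (SD, n = 3 each) for C1qc over C1qa.

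Of the other 6656 genes tested, the 5 whose profiles over the 6 libraries were most like the mean profile of the C1q genes were Abhd12, Lfng, Anapc1, Pik3cd and Cpsf1. Likeness was the root mean square difference of the centred log2 values, which was 0.0196 for Abhd12, a lysophospholipid hydrolase, and 0.0335 to 0.0440 for the other 4. The C1q genes themselves were at 0.0236 (C1qa), 0.0446 (C1qb) and 0.0339 (C1qc), and the median over the other genes tested was 0.217. Each C1q gene is part of the mean profile, so its closeness to that profile is partly built in. With 6 libraries and so many genes, this is a description.

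**Figure D2:**
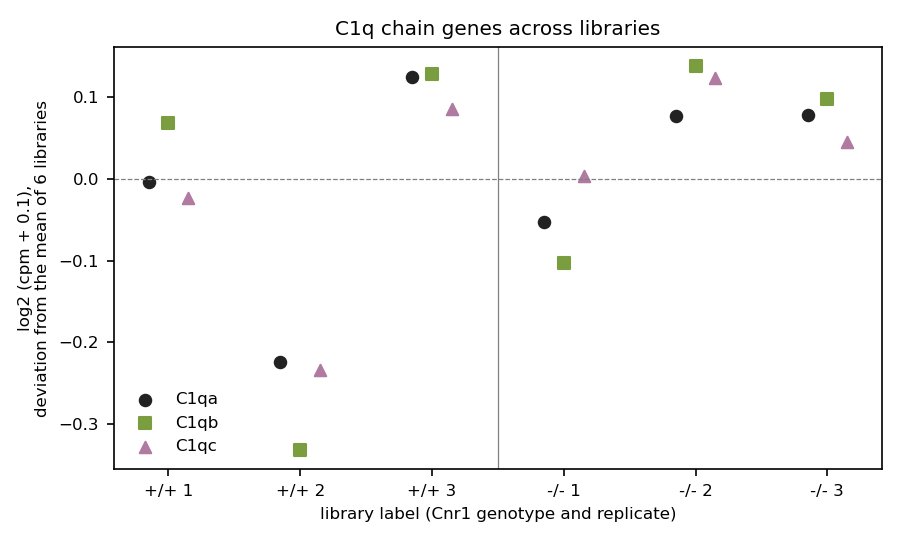
Deviation of C1qa, C1qb and C1qc from their own means over the 6 libraries (vertical axis, log2 scale), by library label (horizontal axis). The symbols of the 3 genes all lie lowest in the library labelled Cnr1+/+ replicate 2. They lie on both sides of 0 in those labelled Cnr1+/+ replicate 1 and Cnr1-/- replicate 1.

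Among the receptor genes, C3ar1 encodes the receptor of C3a and lies on chromosome 6 (chr6:122847138-122856161). It had 132, 130.5 and 158 cpm under the label Cnr1+/+ and 114, 125 and 131 cpm under the label Cnr1-/-. Only the value of 131 cpm in the latter group reached above the lowest of the former. The means were 140.1 ± 15.2 and 123 ± 8.81 cpm (SD, n = 3 each), with a log2 difference of -0.18 (SE 0.128, adjusted p = 0.900 by limma) and an interval from 0.736-fold to 1.06-fold.

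C3ar1 was the only one of the tested complement genes with a negative log2 difference under the authors' scaling, though not under the others, and its nominal p depended on the scaling. By limma this p was 0.173 under the authors' scaling. Centring of the libraries on their medians gave -0.25 with a limma nominal p of 0.0214, and the groups no longer overlapped. At a nominal p under 0.05, 2.67% of all genes were called lower in that fit, and 375 of 6659 genes in either direction. Quantile normalisation gave -0.27 with a limma nominal p of 0.0182 (2.96% called lower). Another scaling brought the libraries to an equal sum over the listed genes that are not mitochondrially encoded. It gave -0.28 with a limma nominal p of 0.0152 (3.19% called lower). Under quantile normalisation and this scaling the groups did not overlap either. The share of all genes without overlap was not counted in these fits. The adjusted p by limma stayed between 0.884 and 0.893 under these 3 scalings. Without the library labelled Cnr1+/+ replicate 3, the highest, the log2 difference was -0.09.

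C5ar1 and C5ar2 encode the receptors of C5a, of which C5ar2 is known as the one that does not couple to G proteins. They are neighbours on chromosome 7, at chr7:16246743-16259540 and chr7:16234585-16244154, 2.59 kb apart. For C5ar1 there were 16.9, 17.7 and 16.0 cpm under the label Cnr1+/+ and 19.4, 16.8 and 19.2 cpm under the label Cnr1-/-, on 130 to 180 reads per library. The 19.4 and 19.2 cpm lay above the first group and the 16.8 cpm within it. They differed by 0.13 on the log2 scale (SE 0.210, adjusted p = 0.954 by limma), with an interval from 0.811-fold to 1.48-fold. The difference was 0.03 to 0.06 under the 3 other scalings, and 0.20 without the library labelled Cnr1-/- replicate 2.

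C5ar2 had 51.2, 53.6 and 59.5 cpm under the label Cnr1+/+ and 52.9, 67.1 and 62.3 cpm under the label Cnr1-/-. Again the groups overlapped, through the 52.9 cpm of replicate 1. The means were 54.8 ± 4.29 and 60.8 ± 7.20 cpm (SD, n = 3 each), with a log2 difference of 0.15 (SE 0.149, adjusted p = 0.921 by limma) and an interval from 0.896-fold to 1.37-fold. The difference was 0.05 to 0.07 under the 3 other scalings. It was 0.07 without the library labelled Cnr1-/- replicate 2 and 0.24 without replicate 1 of that label. The ratio of C5ar2 to C5ar1 lay between 2.73 and 4.00 in the 6 libraries and its lowest and highest values both came from libraries labelled Cnr1-/-.

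Thus 6 of the 9 genes had a mean of at least 10 cpm and were tested, and 0 of the 6 had a limma nominal p under 0.05, where 6.02% of all genes tested did. Also 0 of the 6 changed over 1.5-fold at an adjusted p under 0.1 by limma, against 0.0901% of all genes. The count at a nominal p was also 0 with vooma weights. In 0 of the 6 did all libraries labelled Cnr1-/- lie above the others, as in 8.85% of all genes, and in 0 below, as in 2.13%. Under the authors' scaling, 5 of the 6 had a positive log2 difference, where 68.4% of all genes had one, with a median of 0.10 beside 0.08 over all genes. Under quantile normalisation it was 2 of the 6, and 49.7% of all genes, so no direction is read from the count. The 401 genes with a nominal p under 0.05 were split into 339 higher and 62 lower, a split that moved to 197 and 178 with libraries centred on their medians.

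**Figure D3:**
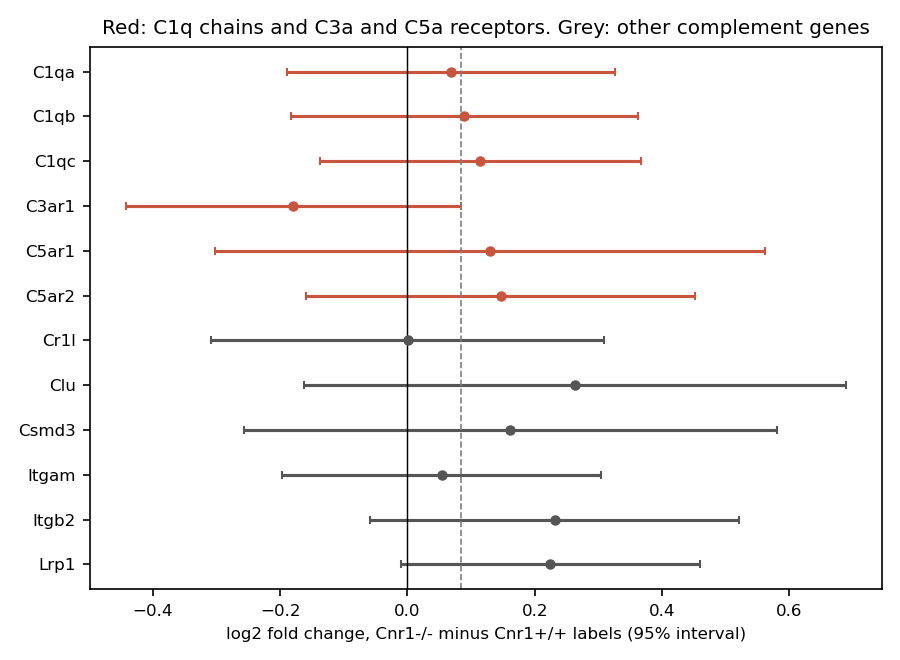
Log2 fold change of the 6 tested complement genes described above (red) and 6 other tested complement genes (grey) between libraries labelled Cnr1-/- and Cnr1+/+ (horizontal axis) with its 95% interval from limma. The dashed line is the median of all genes tested, 0.08, and every interval shown includes 0.

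The remaining 3 genes, C4b, C3 and Cd55, had means below 10 cpm and were compared by their values, by an exact permutation test and by a fit without a filter on low values. An exact two-sided permutation test of 3 against 3 libraries cannot give a p below 0.1.

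C4b encodes complement component C4, which C1s cleaves, and lies on chromosome 17 (chr17:34728380-34743882). The libraries labelled Cnr1+/+ had 6.75, 9.15 and 10.7 cpm and those labelled Cnr1-/- had 6.28, 3.63 and 5.05 cpm. Every value of the second group lay below every value of the first, though the nearest values, 6.28 and 6.75 cpm, lay close. The means were 8.88 ± 2.01 and 4.99 ± 1.32 cpm (SD, n = 3 each), a ratio of 0.562 (two-sided exact permutation p = 0.1, the smallest possible). Of the 6929 listed genes with a mean from 1 to 10 cpm, 4.68% were separate in this direction and 10.2% in either.

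In the limma fit without a filter, the log2 difference of C4b was -0.83 (SE 0.345), with a nominal p of 0.0208 and 0.885 once adjusted. At a nominal p under 0.05, 5.17% of all 19225 genes were called in that fit. The values rested on 39 to 102 reads per library, for which the counting error at the lowest was 16.0%.

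C4b has a near-identical neighbour, C4a, 65.2 kb away, which the annotation of the values gives as a non-coding gene. Reads that fit both were divided between them by expectation-maximisation. C4a had 0.000311, 0.325 and 0.421 cpm under the label Cnr1+/+ and 0.00196, 1.40 and 2.22 cpm under the label Cnr1-/-. When both were added, the libraries labelled Cnr1+/+ had 6.75, 9.48 and 11.1 cpm and those labelled Cnr1-/- had 6.28, 5.04 and 7.27 cpm. The groups then overlapped, with a log2 difference of -0.54 (two-sided exact permutation p = 0.2). This sum was formed after the values were seen. It also adds reads that fit C4a alone, and the part of shared reads in the values of C4b was not tested.

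Astrocytes are known to express C4b as well. The 8 astrocyte markers, led by Slc1a2 and Slc1a3, summed to 331 to 545 cpm under the label Cnr1+/+ and 435 to 627 cpm under the label Cnr1-/-. The sum overlapped between the labels, and its part in the values of C4b was not tested.

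**Figure D4:**
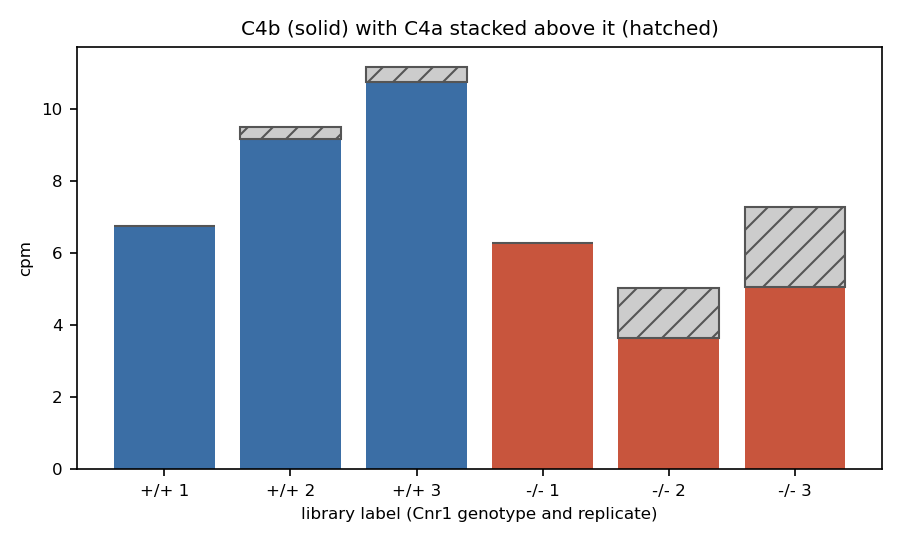
Level in cpm (vertical axis) of C4b as solid bars with C4a stacked above it as hatched bars, by library label (horizontal axis). The solid bars of the labels do not overlap in height, but the stacked bars do, since that of Cnr1-/- replicate 3 reaches 7.27 cpm, above the 6.75 cpm of Cnr1+/+ replicate 1.

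C3, the component on which all pathways of complement converge, lies on chromosome 17 (chr17:57203970-57228136). It was low under both labels, with 0.908, 1.10 and 1.79 cpm under the label Cnr1+/+ and 3.79, 10.2 and 1.07 cpm under the label Cnr1-/-. In reads, these were 7, 11 and 17 against 35, 109 and 9. The libraries labelled Cnr1-/- replicates 1 and 2 lay above all others, and replicate 3 lay within the other group, so the groups overlapped (two-sided exact permutation p = 0.3). The means were 1.26 ± 0.463 and 5.01 ± 4.67 cpm (SD, n = 3 each), and 67.6% of the summed cpm of the libraries labelled Cnr1-/- came from replicate 2, the library with the neutrophil, monocyte and erythrocyte markers. Without it the mean of that group was 2.43 cpm, 1.92 times that of the other.

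For C3, the limma fit without a filter gave a log2 difference of 1.45 (SE 0.661), with a nominal p of 0.0332 and 0.927 once adjusted. Leaving out the library labelled Cnr1-/- replicate 2 took the log2 difference to 0.70, whereas it was 2.26 without replicate 3 of that label. The part of blood cells in these values was not tested, and replicate 1, with 3.79 cpm of C3, had a neutrophil sum of 509.9 cpm, beside 483 cpm in that labelled Cnr1+/+ replicate 1, where C3 was at 0.908 cpm.

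Cd55 (chr1:130439027-130462744) was nearly absent from these cells. It was listed at 0, 0.0998 and 0 cpm under the label Cnr1+/+ and at 0.108, 1.40 and 0 cpm under the label Cnr1-/-, which is 0, 1 and 0 reads against 1, 15 and 0 reads. A value of 0 allows up to 3 reads, which is 0.389 and 0.316 cpm for replicates 1 and 3 labelled Cnr1+/+ and 0.358 cpm for replicate 3 labelled Cnr1-/-, counting error alone considered. All but 1 of the 16 reads of the libraries labelled Cnr1-/- thus came from replicate 2, and the groups overlapped (two-sided exact permutation p = 0.4). Outside that library, Cd55 was not detectable above this limit at the depth reached.

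**Figure D5:**
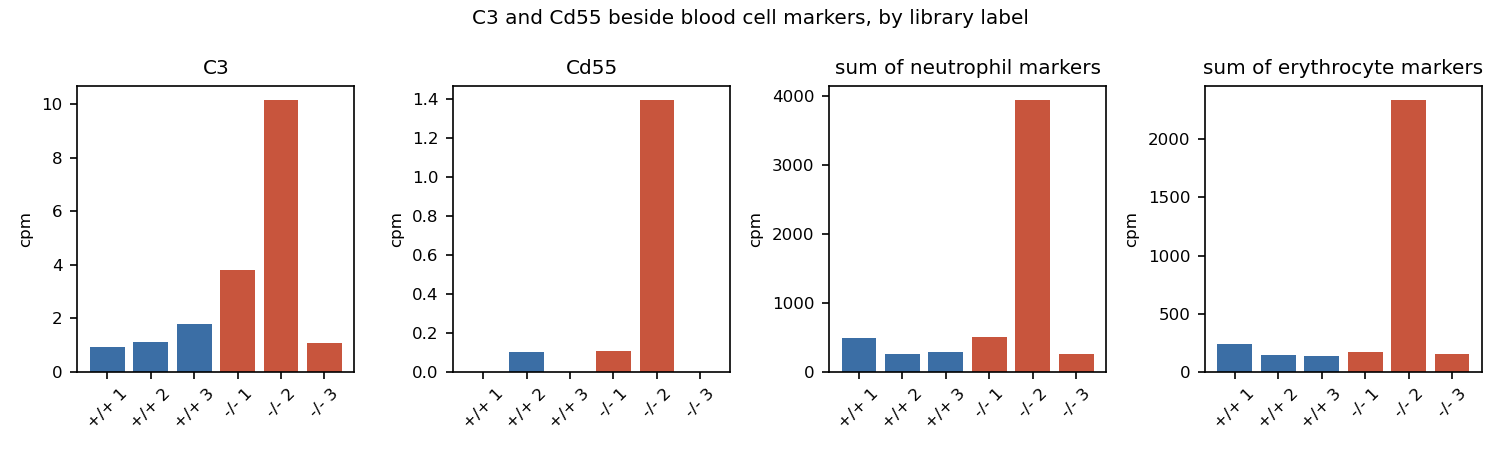
Levels in cpm (vertical axes, from 0) of C3 and Cd55 and the summed cpm of 9 neutrophil and 7 erythrocyte marker genes, by library label (horizontal axes). All 4 are highest in the library labelled Cnr1-/- replicate 2, and C3 is next highest in Cnr1-/- replicate 1, at 3.79 cpm, where the neutrophil sum is 509.9 cpm and the erythrocyte sum 172 cpm.

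The other genes of the pathway were read from a list of 46, of which 27 were listed and 7 had a mean of at least 10 cpm. With limma 0 of these 7 had a nominal p under 0.05 (6.02% of all genes), also with vooma weights, and all 7 log2 differences were above 0 under the authors' scaling, with a median of 0.16 beside 0.08 over all genes, but only 4 of the 7 under each of the 3 other scalings. Of the classical and lectin pathway beyond C1q and C4b, 8 of 14 genes were listed and 0 reached the minimum. The highest means among these were those of C1ra (1.98 cpm), a protease of the C1 complex, Masp1 (1.23 cpm), a protease of the lectin pathway, and Colec12 (1.02 cpm), a scavenger receptor of the collectin family. Fcnb, encoding a ficolin of myeloid cells and named after its values were seen, had 0.389, 0 and 0 cpm under the label Cnr1+/+ and 0.650, 3.64 and 0 cpm under the label Cnr1-/-, again highest in replicate 2.

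The alternative and terminal pathway held 3 listed genes of 10, all below the minimum. Cfp, encoding properdin, which stabilises the enzyme that cleaves C3, had a mean of 3.06 cpm, C8g 0.407 cpm and Cfb, encoding factor B, 0.338 cpm. C2, which forms the C3-cleaving enzyme together with C4b, reached at most 1.19 cpm and was named after its values were seen.

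Of the regulators, 10 of 15 were listed and 4 tested. Cr1l, encoding the membrane inhibitor Crry of rodents, lay between 50.05 and 61.9 cpm with a log2 difference of 0.00028 (adjusted p = 1.000 by limma), and Clu, encoding clusterin, between 21.0 and 44.4 cpm with 0.26 (adjusted p = 0.900 by limma). The difference of Cr1l turned to between -0.099 and -0.075 under the 3 other scalings. That of Clu was -0.027 without the library labelled Cnr1+/+ replicate 3, its lowest, and between 0.40 and 0.42 without replicate 1 or 2 of that label or Cnr1-/- replicate 1, so no direction is given for either.

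Receptors other than those of C3a and C5a were listed for 6 of 7 genes, of which 3 were tested. Itgam and Itgb2 encode the chains of complement receptor 3, and CD11b, the product of Itgam, was the antigen used to enrich the cells. Itgam had 303, 382 and 315 cpm under the label Cnr1+/+ and 342, 377 and 316 cpm under the label Cnr1-/-, with a log2 difference of 0.05 (adjusted p = 0.972 by limma). It turned to between -0.063 and -0.021 under the 3 other scalings and was 0.16 without the library labelled Cnr1+/+ replicate 2, so no direction is given. For Itgb2, 86.9, 89.3 and 120.0 cpm stood against 114, 127 and 104 cpm, with a log2 difference of 0.23 (adjusted p = 0.857 by limma). With 1 library left out it ran from 0.15, without Cnr1+/+ replicate 1, to 0.38, without Cnr1+/+ replicate 3.

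Lrp1, an endocytic receptor that can bind C1q, was the only one of the 7 whose libraries labelled Cnr1-/- all lay above the others, as in 8.85% of all genes, so that this count lies near the background. It had 240.1, 246 and 269 cpm under the label Cnr1+/+ and 291, 291 and 298 cpm under the label Cnr1-/-. The log2 difference was 0.22 (SE 0.115), with a limma p of 0.0607 before and 0.829 after adjustment. Under the 3 other scalings it lay between 0.12 and 0.15 for Lrp1, with a limma nominal p of 0.112 to 0.190, and between 0.13 and 0.16 for Itgb2, with 0.189 to 0.292. Of the fits that left out 1 library, only that without the library labelled Cnr1+/+ replicate 3 brought both under 0.05, with a limma nominal p of 0.0277 for Lrp1 and 0.0117 for Itgb2 (adjusted p 0.497 and 0.432), and 9.07% of all genes were called in that fit, 8.29% as higher. Below the minimum, Itgax, encoding the chain CD11c of complement receptor 4, had 6.10, 5.59 and 6.52 cpm under the label Cnr1+/+ and 5.52, 5.13 and 2.27 cpm under the label Cnr1-/-. Cr2, encoding complement receptor 2, had 5.19, 7.88 and 5.57 cpm against 4.66, 4.48 and 2.74 cpm. Both were separate, as was C4b, where 4.68% of genes with such means were lower in all libraries labelled Cnr1-/-. For Itgax the nearest values, 5.52 and 5.59 cpm, lay less than the value of 1 read apart. Fcna, encoding a ficolin, was separate in the other direction, with 0, 0.599 and 0.841 cpm against 0.974, 1.119 and 2.15 cpm. At 0, 6 and 8 reads against 9, 12 and 18, that separation rested on 1 read, and its mean lay below the range of that share. These 3 genes, Itgax, Cr2 and Fcna, were chosen on seeing their values (two-sided exact permutation p = 0.1 each, the smallest possible).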

How the data were processed

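CD11b+ cells from 3 Cnr1+/+ and 3 Cnr1-/- mice were analysed, grouped by the sample titles, with table columns matched to samples by their numbers. Per the study's methods, trimmed reads were aligned to mm10 with STAR, assigned to genes with the E/M step of Partek Flow and scaled with TMM. The deposited values are CPM, of which 82.9% to 85.1% of those above 0.05 cpm per library were whole multiples (within 0.01 read) of the value of 1 read, so no test for counts was used. The end coordinates of the table lie 1 base past those of GENCODE vM21 for 99.3% of 18870 matched symbols, and 1 was subtracted.

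Values were compared with limma 3.58.1 in R 4.3.3 on log2 (cpm + 0.1), keeping genes whose mean reached 10 cpm, with no term but genotype, a mean-variance trend and Benjamini-Hochberg adjustment over all genes tested. A two-sided exact permutation test on the same scale was used for single genes. The steps were tested on simulated data. The genes and lists were chosen with earlier results of these data known. Named are the 9 genes, Cnr1, other complement genes with a nominal p under 0.05, the 3 highest means of each group of them, the 2 highest markers of the marker lists used and the 5 genes most like C1q. A regulator and a marker list that this rule names are not reported here. C2, C4a, Cr2, Fcna, Fcnb and Itgax were added after their values were seen. Of the marker lists, the sums not given elsewhere, those of border-associated macrophages, neurons, endothelial cells and lymphocytes, lay at 306 to 436, 50.2 to 89.0, 16.5 to 28.8 and 5.29 to 9.99 cpm, led by Stab1 and Mrc1, Nrgn and Map2, Pecam1 and Flt1, and Cd79b and Cd79a. Plots were made in Python 3.11.15 (matplotlib 3.10.9).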

Additional observations from a re-analysis of the deposited data

How the results depend on the processing

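Of 132 values of the 9 genes under 16 alternatives, 124 kept their sign. Alternatives that change only the filter, weights, trend or block leave the log2 difference as it was. Their signs were therefore fixed in advance and add no support. The lowest adjusted p was 0.629, among the 98 values with a limma fit, and those of C3, C4b and Cd55 had one without a filter only. The other 8, all of C1q genes, changed sign. C1qa lay between -0.026 and 0.15 with each library left out in turn, and was at -0.0071 with libraries centred on their medians. It was at -0.11 under quantile normalisation and at -0.031 with an equal sum over the listed genes not mitochondrially encoded. C1qb was at -0.0046 and -0.0099 under the latter pair of scalings and between -0.054 and 0.18 with each library left out, and C1qc at -0.0039 under quantile normalisation. For each C1q gene, leaving out the library labelled Cnr1+/+ replicate 2 gave the lowest of the values with 1 library left out.

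A nominal p under 0.05 was found for 0 of the 6 genes tested as reported and 0 with each library left out, 2 of 9 without a filter (C3 and C4b, not tested in the other fits) and 1 under each of the 3 scalings (C3ar1). For the other complement genes it was 0, and 0 to 2 with each library left out. Over all genes it was 401, with 993 without a filter, 263 with a minimum mean of 20 and 251 to 600 with each library left out. At an adjusted p under 0.1 and a fold change over 1.5 it was 6, with 14 without a filter, 0 under each of the 3 scalings and without the trend, and 1 to 24 with each library left out. The cause of these shifts was not tested, apart from the number of genes that a filter leaves. Of the 401 genes, 339 were higher, and 197 of 375 with centred libraries, 163 of 360 under quantile normalisation and 142 of 354 with rescaling were higher.

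With the replicate number as a block, 421 genes had a nominal p under 0.05 and 0 of the 6 tested here did. Same-numbered libraries did not deviate together (correlations of -0.056, -0.032 and -0.031), so the values show no pairing by number. With so few libraries, this cannot decide whether mice were handled in pairs. C3, C4b and Cd55 lay below the minimum mean and were not run under quantile normalisation, vooma weights, the fit without trend or the block. The sum of C4a and C4b was added after seeing the data, with -0.54 against -0.83 for C4b alone.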
